A study of Rattus norvegicus with 4 samples.

Results

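Genes of amino acid transport, amino acid synthesis and the stress response to amino acid shortage were followed here, 10 in all: Slc7a3, Slc7a1, Slc7a5, Slc3a2, Asns, Phgdh, Psat1, Atf4, Ddit3 and Trib3. They were found by name, or by the RefSeq transcript they were designed on, among the probes of Agilent whole rat genome arrays, where they had 11 probes of 41012. The 10 genes are 10 of 35652 names on the array, and 9 of them were measured above background. They were chosen with earlier results of these arrays known, and Slc7a3 was singled out for its ratios, so all values of these genes are descriptions and carry no test.

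The arrays compared 3 kinds of RNA from primary cultures. Cortical astrocytes came from Wistar rat pups at postnatal day 1 and were expanded in DMEM with fetal bovine serum. For co-cultures (CC), hippocampal neurons of mouse embryos at embryonic day 18 were plated on the astrocyte layer in Neurobasal medium with B-27, and astrocytes alone were kept in like culture conditions without neurons. Cold jet, a stream of ice-cold PBS that detaches neurons and leaves the astrocyte layer behind, was applied to co-cultures (CC-CJ) and to astrocytes cultured alone (AA-CJ), but not to CC. The labels name no drug or transgene, and astrocytes alone without cold jet were not analysed here. The comparison of CC-CJ with AA-CJ asks which astrocyte mRNAs differ after culture with neurons, and that of CC-CJ with CC asks what cold jet removed. Each was made on 2 arrays, with CC-CJ in Cy3 and the other RNA in Cy5 on all 4 arrays, and no dyes were swapped, so a dye effect and a difference between conditions cannot be told apart on any of them. As CC and AA-CJ carried the same dye, their ratio was taken through CC-CJ, and the 3 comparisons share samples. Replicates came from different pools of animals, and p-values measure only the spread between these samples. Neither labels nor methods say whether CC-CJ of one replicate number was the same RNA on an array with AA-CJ and on one with CC. The difference in CC-CJ level between replicates 1 and 2 correlated at 0.45 over 24865 probes between these pairs of arrays, so the 4 CC-CJ channels may hold no more than 2 RNA samples. Mouse neuron mRNA was read by rat probes, and how well it binds them was not tested. Positions of probes were read from the scanner files (rn4), and exons or other parts of genes are not stated since gene models of that build were not used here.

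Amino acids enter cells through carriers of the solute carrier families, some of which carry single amino acids and some of which exchange one for another. When amino acids run short or unfolded proteins gather in the endoplasmic reticulum (ER), kinases phosphorylate the initiation factor eIF2, general protein synthesis slows, and the mRNA of the transcription factor ATF4 is translated more. ATF4 in turn drives genes of amino acid uptake and synthesis, tRNA charging and, with lasting stress, of cell death. Since ATF4 is governed largely at translation, its mRNA level alone does not give its activity. Astrocytes are a main site of serine synthesis in the brain and supply neurons with it.

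Between 50.1% and 62.6% of probes were well above background per channel, and the number of arrays limits the precision. The ratio M is log2 of CC-CJ over the other RNA on 1 array after intensity-dependent normalization, and a level is the log2 normalized intensity of 1 kind of RNA on 1 array, that is of 1 channel. All 9 markers of astrocytes were well above background in each of the 3 kinds of RNA, and their summed linear level was 37842 to 40395 in CC-CJ, 35651 to 39742 in AA-CJ and 37237 to 38847 in CC. Markers of neurons, 11 of 12 measured, summed to 8267 to 8657, 8719 to 9294 and 19117 to 19740 in the same order. Snap25 and Syp were not well above background in CC-CJ, and in AA-CJ neither were these nor Dcx and Elavl4. Stmn2 alone made up 29.3% to 87.1% of that sum, and without it the other 10 summed to 1872 to 2337 in CC-CJ, 1151 to 1195 in AA-CJ and 12707 to 13947 in CC. Of the 11 neuronal markers, 7 had a log2 ratio above 0 for CC-CJ over AA-CJ, and 4 of these (Gap43, Dcx, Mapt and Elavl4) passed in limma (adjusted p under 0.05), while Stmn2 was at -0.27 (adjusted p = 0.139). Dcx and Elavl4 were kept only through CC-CJ and CC, where they were high. Microglial markers (6 of 9 measured) summed to 1134 to 1410 in CC-CJ, 808 to 925 in AA-CJ and 2229 to 2259 in CC. Of 6 endothelial markers 4 were not above background, and the summed level of the other 2, at 634 to 728, 163 to 180 and 721 to 727, was mostly that of Kdr, since Cdh5 alone was at 84 to 103, 77 to 88 and 76 to 81. Fibroblast markers (3 of 4) summed to 24590 to 28550, 28701 to 30093 and 33729 to 34823. None of the 3 passed the threshold against AA-CJ, where Col1a1 was above 0. Those of the oligodendrocyte lineage (8 of 9) summed to 2942 to 3159, 3102 to 3571 and 3434 to 4135. In limma, CC-CJ was lower than CC at an adjusted p under 0.05 for 7 of 11 neuronal and 4 of 6 microglial markers. The same held for Col1a2 (log2 ratio -0.59) and Dcn (-0.77) of the 3 fibroblast markers and for Sox10 (-1.12) of the oligodendrocyte lineage. No astrocyte or endothelial marker passed against CC. Against AA-CJ, the non-neuronal markers that passed were C1qa (1.19), Tyrobp (0.77), Kdr (2.62) and Aqp4 (0.51), all higher in CC-CJ. The part of these cell types in the results below was not tested. In bulk RNA, fewer cells of a type and less RNA per cell cannot be told apart.

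Slc7a3, a carrier of the cationic amino acids arginine and lysine, was highest in astrocytes cultured alone. Its probe lies at chrX:89159688-89159747 (rn4, minus strand). The level of Slc7a3 was 10.64 and 10.57 in the 2 AA-CJ samples, against 9.91, 9.89, 9.90 and 9.82 in CC-CJ on the 4 arrays. Whole co-culture (CC) had levels of 9.70 and 9.46. The 3 kinds of RNA did not overlap, and the order was AA-CJ, then CC-CJ, then whole co-culture. M of Slc7a3 was -0.73 and -0.68 against AA-CJ, a mean of -0.70 ± 0.0848 (standard error of the fit, n = 2 arrays), or 1.63-fold lower in CC-CJ. Against CC, M was 0.20 and 0.36, with a mean of 0.28 ± 0.0848. CC over AA-CJ, both in Cy5, gave a log2 ratio of -0.98 ± 0.12, or 1.98-fold lower in whole co-culture. Of 21310 genes ordered by log2 ratio, Slc7a3 was the 85th from the lowest for CC-CJ over AA-CJ and the 7th from the lowest for CC over AA-CJ. The difference between AA-CJ and each of the co-culture RNAs kept its sign under all 16 alternatives of processing, with log2 ratios of -1.84 to -0.66 for CC-CJ and -1.12 to -0.90 for CC. Not all 16 could turn it, since those of filter, probe choice, prior and replicate block leave the ratio of a gene with 1 probe unchanged. For CC-CJ over AA-CJ, leaving out arrays with CC changes nothing either. The small difference between CC-CJ and CC did not keep its sign, since it turned to -0.80 when arrays were centred on their median without correction for intensity, or -0.21 relative to the median gene.

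**Figure D1:**
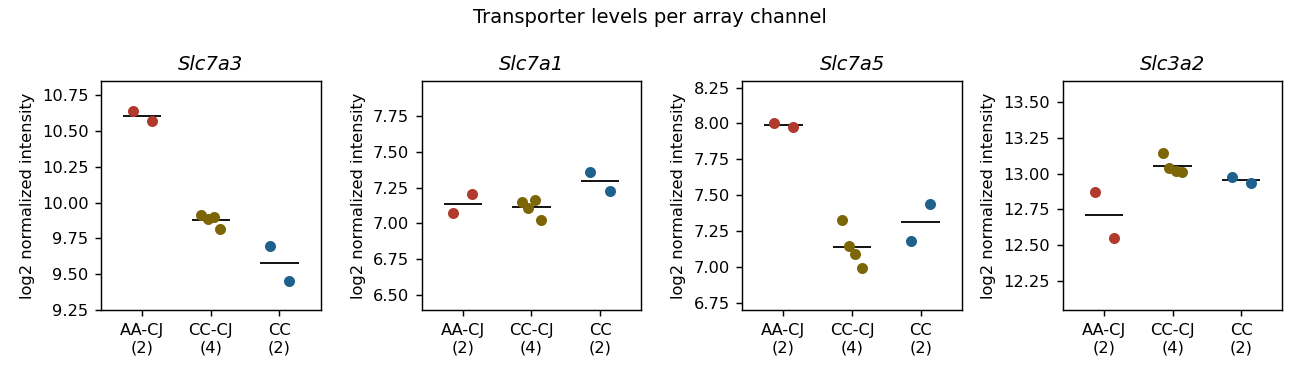
Log2 normalized intensity of 4 amino acid carriers in each channel (points; the number of channels is under each group, bars are means, and each panel spans the same number of log2 units). AA-CJ lies above all other channels for Slc7a3 (10.57 to 10.64) and Slc7a5 (7.98 to 8.00) and, under this normalization but not under median centring, below all others for Slc3a2 (12.55 to 12.87).

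Slc7a1, the widely expressed carrier of the same cationic amino acids, differed little. It was read by 2 probes on the plus strand, at chr12:7247219-7247791 and chr12:7253391-7253451 (rn4). The mean level of Slc7a1 over both probes was 7.07 and 7.21 in AA-CJ, 7.02 to 7.16 in CC-CJ and 7.36 and 7.23 in CC. AA-CJ and CC-CJ overlapped, and CC lay just above both. The mean M of Slc7a1 was 0.08 and -0.10 against AA-CJ (-0.01 ± 0.0853, n = 2) and -0.20 and -0.20 against CC (-0.20 ± 0.0853, n = 2), and CC over AA-CJ was 0.19 ± 0.121. The probes disagreed against AA-CJ: M was 0.13 and 0.19 for the upstream probe and 0.03 and -0.39 for the downstream one. Neither probe showed the lower level in co-culture RNA that the probe of Slc7a3 did in both replicates.

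Slc7a5, the light chain that carries large neutral amino acids such as leucine, was highest in AA-CJ too. Its probe lies at chr19:52121389-52121448 (rn4, minus strand). The level of Slc7a5 was 8.00 and 7.98 in AA-CJ, 7.32, 7.15, 7.09 and 6.99 in CC-CJ, with 7.18 and 7.44 in CC. Both AA-CJ samples lay above all others, while CC-CJ and CC overlapped. M of Slc7a5 was -0.68 and -0.83 against AA-CJ (-0.75 ± 0.108, n = 2), or 1.69-fold lower in CC-CJ. Against CC it was -0.09 and -0.45 (-0.27 ± 0.108, n = 2), a spread between arrays wider than the mean itself. CC over AA-CJ was -0.48 ± 0.153 for Slc7a5. The sign of each of these 3 ratios of Slc7a5 held under all 16 alternatives, not all of which could turn it, with -1.50 to -0.68 for CC-CJ over AA-CJ.

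Slc3a2, the heavy chain with which Slc7a5 forms its working carrier, went the other way. Its probe lies at chr1:211376528-211376587 (rn4, minus strand). The level of Slc3a2 was 12.87 and 12.55 in AA-CJ, 13.14, 13.04, 13.02 and 13.01 in CC-CJ, with 12.97 and 12.93 in CC. Again no group overlapped with another, but here AA-CJ was the lowest. M of Slc3a2 was 0.27 and 0.49 against AA-CJ (0.38 ± 0.0891, n = 2) and 0.05 and 0.08 against CC (0.06 ± 0.0891, n = 2), and CC over AA-CJ was 0.32 ± 0.126. The chains of this carrier thus had ratios of opposite sign on both arrays with AA-CJ and on both with CC, though not under median centring (described below), where both were below 0. The sign of Slc3a2 for CC over AA-CJ held under all 16 alternatives (0.18 to 0.43), not all of which could turn it. For CC-CJ over AA-CJ its sign turned under median centring (-1.07, or -0.58 relative to the median gene).

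The promoters of 3 genes are shown because Slc7a1 and Trib3 were the genes whose promoter held an ATF4 motif, and because Slc7a5, whose level differed most between AA-CJ and CC-CJ among genes with an entry, held none. Each runs 5′ to 3′ from 250 bases before to 50 after the start of the gene, as RefSeq gives it on GRCr8, a later build than that of the probes. They lie at chr12:11664238-11664537 (plus strand) for Slc7a1, chr19:66872363-66872662 (minus strand) for Slc7a5 and chr3:161275484-161275783 (minus strand) for Trib3. Capitals mark matches to TGATGNAA or its reverse complement TTNCATCA, the composite element that ATF4 binds with C/EBP partners.
Slc7a1: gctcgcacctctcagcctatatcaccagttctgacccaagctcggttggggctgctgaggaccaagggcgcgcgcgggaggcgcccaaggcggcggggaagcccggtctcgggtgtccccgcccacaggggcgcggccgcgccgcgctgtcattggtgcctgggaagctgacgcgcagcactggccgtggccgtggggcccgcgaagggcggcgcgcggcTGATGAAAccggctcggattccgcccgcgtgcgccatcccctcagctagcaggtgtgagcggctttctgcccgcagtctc
Slc7a5: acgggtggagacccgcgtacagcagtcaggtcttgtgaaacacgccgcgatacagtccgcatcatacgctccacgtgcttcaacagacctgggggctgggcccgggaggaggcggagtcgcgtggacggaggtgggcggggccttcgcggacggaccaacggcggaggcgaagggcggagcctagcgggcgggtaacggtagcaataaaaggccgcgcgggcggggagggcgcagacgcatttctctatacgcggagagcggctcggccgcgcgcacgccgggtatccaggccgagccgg
Trib3: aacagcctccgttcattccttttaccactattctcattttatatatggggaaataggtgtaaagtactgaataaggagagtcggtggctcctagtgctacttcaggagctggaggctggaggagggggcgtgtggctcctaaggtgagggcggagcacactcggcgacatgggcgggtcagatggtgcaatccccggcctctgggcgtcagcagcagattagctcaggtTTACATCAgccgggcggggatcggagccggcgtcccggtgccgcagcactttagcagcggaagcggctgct
The match began 30 bases before the start in Slc7a1 (TGATGAAA) and 21 bases before it in Trib3 (TTACATCA). Of the 10 genes, 9 had 10 entries, Slc3a2 with 2 of them, and Slc7a3 had none. Of 33469 promoters of this length, 1332 held the motif on either strand, or 3.98%, and 2 of the 9 genes did. A match of letters is a description and not a site of binding, and a window without them says only that these letters are not in it. Slc7a1 and Trib3, the pair with a match, had mean M values of -0.01 and -0.37 against AA-CJ.

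Asns, which makes asparagine and is a much used readout of ATF4, was read at chr4:32759136-32759195 (rn4, minus strand). The level of Asns was 11.34 and 11.43 in AA-CJ, 11.21, 11.10, 11.19 and 11.03 in CC-CJ, with 11.36 and 11.24 in CC. CC-CJ lay below both other kinds of RNA, which overlapped with each other. M of Asns was -0.13 and -0.33 against AA-CJ (-0.23 ± 0.0872, n = 2) and -0.18 and -0.22 against CC (-0.20 ± 0.0872, n = 2). CC over AA-CJ was -0.03 ± 0.123, smaller than its error.

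Phgdh, the enzyme of the first step of serine synthesis, was read at chr2:193147951-193148010 (rn4, minus strand). The level of Phgdh was 14.11 and 14.04 in AA-CJ, 14.09, 14.31, 14.08 and 14.23 in CC-CJ, with 13.92 and 14.05 in CC. AA-CJ overlapped with both others, and CC-CJ lay above CC. M of Phgdh was -0.02 and 0.28 against AA-CJ (0.13 ± 0.0975, n = 2) and 0.16 and 0.18 against CC (0.17 ± 0.0975, n = 2), and CC over AA-CJ was -0.04 ± 0.138. Psat1, which takes the next step of the same pathway, had 1 probe, at chr1:219286277-219290212 (rn4, minus strand, a span of 3936 bases). It was not well above background in any of the 8 channels, and no ratio is given for it.

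Atf4 itself, read at chr7:118538840-118538899 (rn4, plus strand), did not separate the groups. Its level was 12.88 and 12.54 in AA-CJ, 12.84, 12.98, 12.82 and 12.96 in CC-CJ, with 12.86 and 12.86 in CC, and all 3 overlapped. M of Atf4 was -0.04 and 0.44 against AA-CJ (0.20 ± 0.124, n = 2) and -0.03 and 0.10 against CC (0.03 ± 0.124, n = 2). CC over AA-CJ was 0.17 ± 0.176, and the spread between the AA-CJ samples was wider than any of these means.

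Ddit3, which encodes CHOP, a transcription factor of lasting ER stress, was read at chr7:67251675-67252036 (rn4, plus strand, a span of 362 bases). The level of Ddit3 was 8.76 and 8.80 in AA-CJ, 8.44, 8.50, 8.40 and 8.40 in CC-CJ, with 8.51 and 8.69 in CC. No group overlapped with another, though the highest CC-CJ and the lowest CC value nearly met. M of Ddit3 was -0.32 and -0.29 against AA-CJ (-0.31 ± 0.0861, n = 2) and -0.11 and -0.29 against CC (-0.20 ± 0.0861, n = 2). CC over AA-CJ was -0.11 ± 0.122, within its error.

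Trib3, a pseudokinase that ATF4 and CHOP induce and that acts back on ATF4, was read at chr3:142664064-142664123 (rn4, minus strand). The level of Trib3 was 9.54 and 9.29 in AA-CJ, 9.10, 8.99, 9.02 and 8.94 in CC-CJ, with 9.31 and 8.95 in CC. AA-CJ lay above CC-CJ, and CC spread across both. M of Trib3 was -0.44 and -0.30 against AA-CJ (-0.37 ± 0.0989, n = 2) and -0.29 and -0.01 against CC (-0.15 ± 0.0989, n = 2), and CC over AA-CJ was -0.22 ± 0.14.

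**Figure D2:**
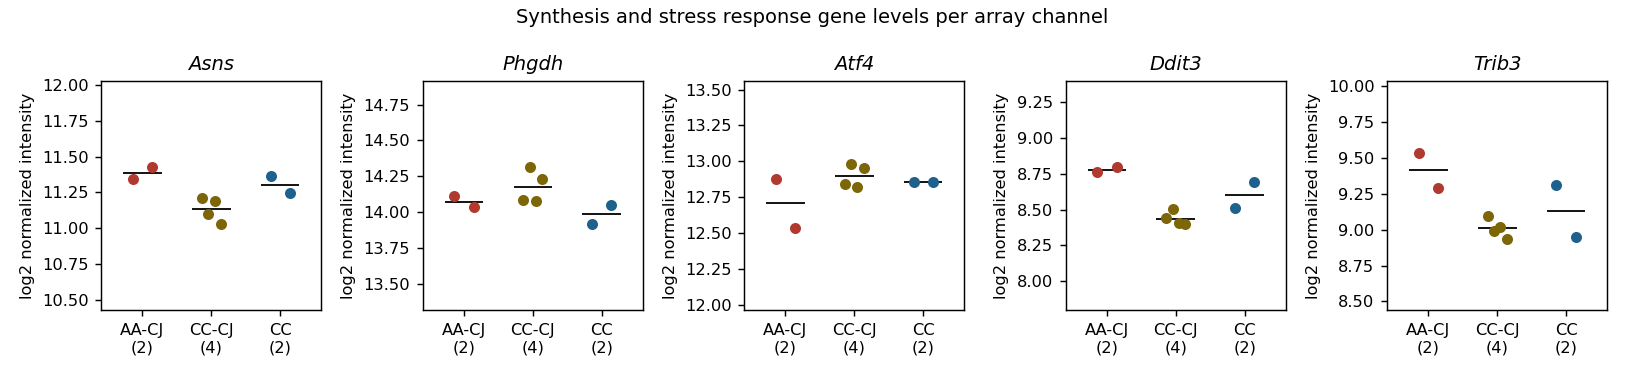
Log2 normalized intensity of 2 synthesis enzymes and 3 stress response genes in each channel (points; bars are means, and each panel spans the same number of log2 units). Asns, Ddit3 and Trib3 are higher in both AA-CJ channels than in all 4 CC-CJ channels, by less than Slc7a3 and Slc7a5, and Atf4 overlaps throughout.

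Over the 9 genes measured, the log2 ratio of CC-CJ over AA-CJ was above 0 for 3 and below 0 for 6, with a median of -0.23, beside a median of -0.02 over all 21310 genes. Of the 9, 2 (Slc7a3 and Slc7a5) were lower at an adjusted p under 0.05 in limma, where 1.16% of all genes were lower and 1.93% higher (3.09% in all). For CC-CJ over CC, 4 were above 0 and 5 below, with a median of -0.15 and none past the threshold, where 2.25% of all genes were lower and 0.0939% higher (2.34% in all). For CC over AA-CJ, 3 were above 0 and 6 below, with a median of -0.04 and only Slc7a3 past the threshold, where 0.0798% of all genes were lower and 2.57% higher (2.65% in all). Since the genes were chosen on these ratios, nothing is read from those counts, nor from which of the 9 passed under other settings. Slc7a5, Asns, Ddit3 and Trib3 had M below 0 on all 4 arrays, and Slc3a2 had M above 0 on all 4. Under median centring all 9 genes had a log2 ratio below 0 in CC-CJ against either RNA, where the median over all genes moved to -0.48 against AA-CJ and -0.59 against CC, while that of CC over AA-CJ stayed at -0.01. Thus the signs of Slc3a2, Phgdh and Atf4 in CC-CJ, and of Slc7a3 against CC, depended on the correction for intensity, and the ratios of CC over AA-CJ did not turn under it. Without the first AA-CJ array none of the 9 passed against AA-CJ, and without the second only Slc7a3 did. With the replicate number as a block only Slc7a5 passed against AA-CJ, and Slc7a3 did not.

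**Figure D3:**
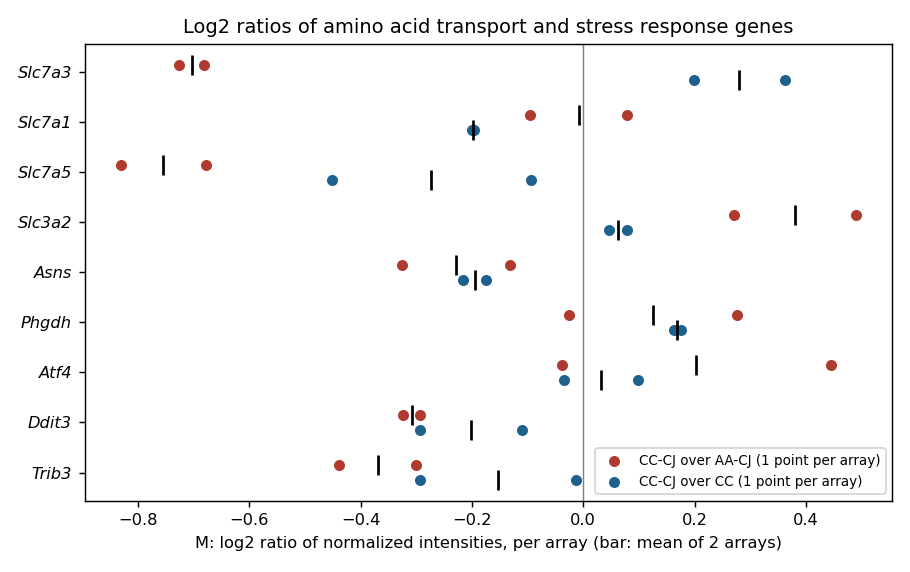
M, the log2 ratio of CC-CJ over AA-CJ (red) or over CC (blue), on each array for the 9 genes measured; black bars are means of 2 arrays. After correction for intensity, Slc7a3 is at -0.73 and -0.68 against AA-CJ but at 0.20 and 0.36 against CC, while Slc7a5 is below 0 on all 4 arrays and Slc3a2 above 0 on all 4; under median centring the last turned.

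The other amino acid carriers were given by a list of 31 genes, of which 18 were measured and 2 had no probe. In no kind of RNA were the other 11 well above background on all of its arrays, and they were left out. In none of the 3 comparisons did limma call any of the 18 at an adjusted p under 0.05, and an unadjusted p under 0.05 was reached by 3, 3 and 1 of them for CC-CJ over AA-CJ, CC-CJ over CC and CC over AA-CJ, where 22.6%, 16.9% and 17.8% of all genes did so. Their median log2 ratios were -0.06, 0.02 and 0.002. Against AA-CJ the carriers with the largest ratios were Slc6a15, a carrier of neutral amino acids, at 0.42 (limma adjusted p = 0.057), and Slc38a10, at -0.32 (adjusted p = 0.308). Slc6a15 was well above background on only 1 of the 2 AA-CJ arrays. The arrays of Slc38a10 differed from each other by more than its mean, with M of -0.65 and 0.01. For CC-CJ over CC the largest were Slc38a10 at -0.40 (limma adjusted p = 0.293) and Slc36a2 at 0.34 (adjusted p = 0.107), and for CC over AA-CJ they were Slc7a9 at -0.37 (adjusted p = 0.687) and Slc36a2 at -0.35 (adjusted p = 0.19). Among the 11 carriers left out were Slc7a2, which like Slc7a1 and Slc7a3 carries cationic amino acids, and Slc7a11, the cystine and glutamate exchanger.

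Of 30 other genes known as targets of ATF4, 26 were measured, and 2 of them rose in CC-CJ against AA-CJ, where 1.93% of all genes did. Gdf15, a secreted stress factor, had M of 1.06 and 0.61 (mean 0.83 ± 0.119, limma adjusted p = 0.0246, n = 2), with levels of 6.82 and 7.07 in AA-CJ and 7.68 to 8.11 in CC-CJ. Aldh1l2, a mitochondrial folate enzyme, had M of 0.72 and 0.57 (limma adjusted p = 0.0234). Since its probe was not well above background in either AA-CJ sample, Aldh1l2 was at least 1.53-fold higher in CC-CJ on these arrays. It was kept only through CC-CJ and CC, where it was high, so its call is not independent of the filter. With only probes above background in all channels it was not measured. With the replicate block Gdf15 still passed (limma adjusted p = 0.0464) and Aldh1l2 did not (adjusted p = 0.0589). Both ratios were thus opposite in sign to those of Slc7a3, Slc7a5, Asns, Ddit3 and Trib3. Between CC-CJ and CC neither passed, with M of 0.21 and 0.08 for Gdf15 (limma adjusted p = 0.583) and 0.07 and -0.11 for Aldh1l2 (adjusted p = 0.947). Without the first AA-CJ array neither passed (adjusted p = 0.101 and 0.119). Atf5 was the lowest of the list, with M of -0.62 and -0.68, but did not pass (adjusted p = 0.0823). The lists are not separate: Slc1a4, Slc1a5 and Slc38a2 are also in that of the carriers and count in both. So are Slc6a9 and Slc7a11, which were not measured, and Ppp1r15a is also in the list of eIF2 kinases and phosphatase subunits. Over the list, 9 genes were above 0 and 17 below, and the median was -0.09. Unadjusted p was under 0.05 for 7 of the 26, beside 22.6% of all genes. None passed for CC-CJ over CC, where 4 had an unadjusted p under 0.05 (16.9% of all genes) and the largest ratios were -0.50 for Vldlr (limma adjusted p = 0.0955) and -0.38 for Chac1 (adjusted p = 0.0854). None passed for CC over AA-CJ either, where 4 had an unadjusted p under 0.05 (17.8% of all genes) and the largest were 0.69 for Gdf15 (limma adjusted p = 0.1) and 0.66 for Aldh1l2 (adjusted p = 0.0523).

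The cytosolic aminoacyl-tRNA synthetases, which load amino acids onto tRNA and are in large part targets of ATF4, were measured for 17 of 20 genes, and none passed in limma in any comparison. Unadjusted p was under 0.05 for 5, 4 and 1 of them in the order above, beside 22.6%, 16.9% and 17.8% of all genes, and their median log2 ratios were -0.12, -0.09 and -0.01. Against AA-CJ the largest ratios were those of Sars1 at -0.41 (limma adjusted p = 0.156) and Kars1 at -0.35 (adjusted p = 0.0846), for serine and lysine. Against CC they were Aars1 at -0.51 (limma adjusted p = 0.255) and Yars1 at -0.43 (adjusted p = 0.141), and for CC over AA-CJ Eprs1 at 0.35 (adjusted p = 0.218) and Yars1 at 0.33 (adjusted p = 0.355).

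ER chaperones and genes of the unfolded protein response, 19 of 21 measured, did not pass in limma in any comparison either, with 4, 4 and 1 at an unadjusted p under 0.05, beside the same shares of all genes. Their medians were -0.06, -0.10 and 0.04. Against AA-CJ the largest ratios were Pdia3, an ER disulfide isomerase, at -0.53 (limma adjusted p = 0.233) and Atf6, an ER stress sensor, at -0.46 (adjusted p = 0.0923). Against CC they were Pdia3 at -0.62 (limma adjusted p = 0.247) and Hspa5, the main ER chaperone, at -0.58 (adjusted p = 0.168), and each came largely from 1 array, with M of -0.08 and -1.16 for Pdia3 and -0.21 and -0.95 for Hspa5. The largest for CC over AA-CJ were Hsp90b1 at 0.36 (limma adjusted p = 0.231) and Ern1 at -0.29 (adjusted p = 0.436).

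**Figure D4:**
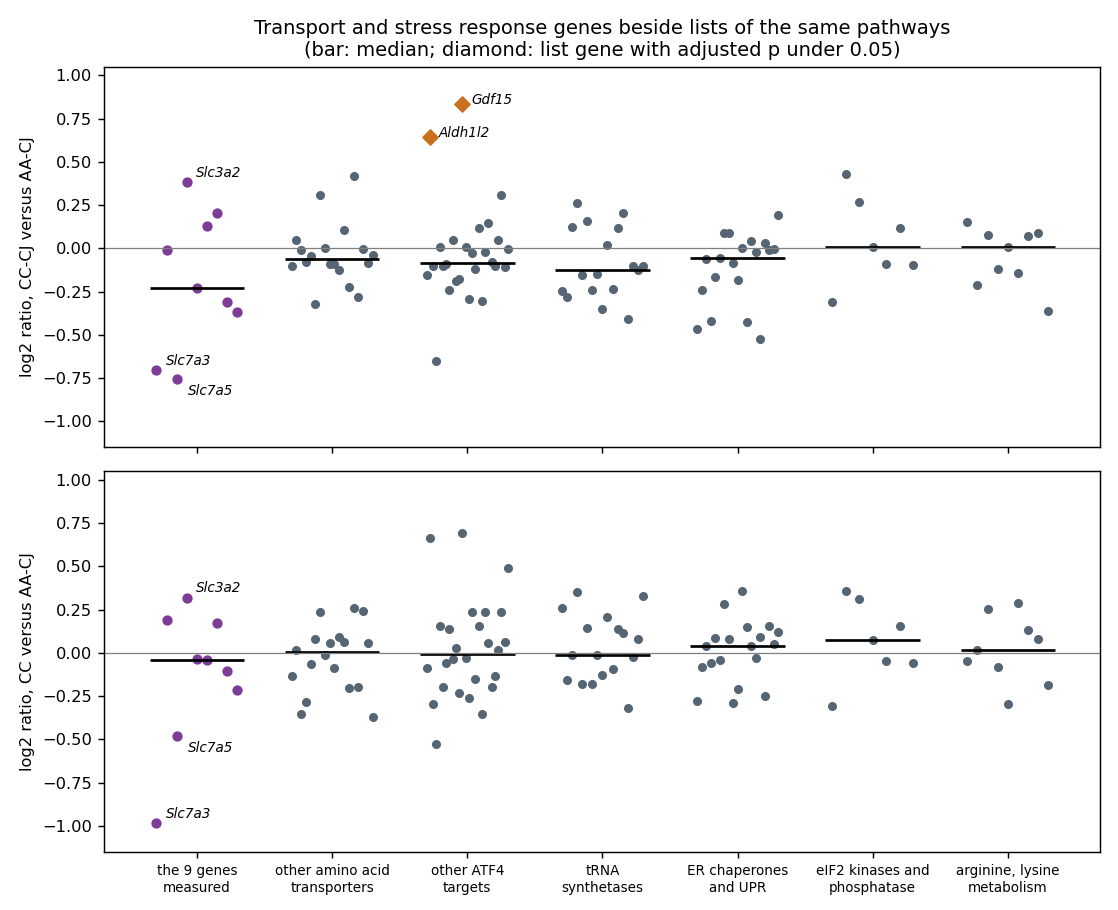
Log2 ratio of CC-CJ over AA-CJ (top) and of CC over AA-CJ (bottom) for the 9 genes measured and for 6 lists of genes of the same pathways; each point is 1 gene, bars are medians, and diamonds are list genes with a limma adjusted p under 0.05. Gdf15 and Aldh1l2 are the list genes past the threshold in the top panel, there is none in the bottom panel, and Slc7a3 (-0.98) is the lowest point there. Aldh1l2 was kept only through CC-CJ and CC, where it was high.

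Ratios over the 4 arrays were also compared with those of Slc7a3 by Euclidean distance, as a description with no test. The 5 nearest of the genes with a known symbol were Lcn2 at a distance of 0.35, S100a13 at 0.357, C3h9orf50 at 0.403, Rpl37 at 0.432 and Tspo at 0.434 log2 units. Lcn2, an acute phase lipocalin, had M of -0.85 and -0.88 against AA-CJ and -0.05 and 0.42 against CC. The study's text gives the opposite direction for Lcn2 against AA-CJ, and the dyes were kept here as its methods state them. S100a13, a small calcium-binding protein, had M of -0.57 and -0.43 against AA-CJ and 0.37 and 0.28 against CC, so that like Slc7a3 it was lower in CC-CJ on both arrays with AA-CJ and higher on both with CC. Rpl37, read by a probe made on an expressed sequence tag, has near-identical copies in the genome and is uncertain. No other amino acid carrier, and none of the ATF4 targets listed, was among these 5. With so few genes named out of so many, nothing is read from that absence.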

How the data were processed

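RNA of 3 kinds was compared on 4 Agilent arrays of 1 slide with 2 colours. The deposited intensity files hold mean signal and local background per spot in both channels on a linear scale, as written by Feature Extraction 9.5.1.1 (per the submitters' processing notes), beside its log10 ratio of Cy5 over Cy3, which the authors deposited in the same files. A deposited table of the authors' processed values proved to hold log2 of Cy5 over Cy3: over probes with a mean log2 intensity above 9, it correlated with M at -0.981 to -0.945 with slopes of -1.11 to -0.927, and its columns had medians of 0.00847, 0.0043, -0.0247 and -0.0141. The study names OLIN and OSLIN for its normalization, which were not run here, and a regression on intensity and location was an alternative.

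Background of the mean signals was removed by normexp (offset 50) and M was corrected by loess (span 0.3) in limma 3.58.1 under R 4.3.3. Control spots got no weight, and spots marked as outliers, 121 to 179 per array, were dropped. Of 41012 probes, 24865 were kept because all arrays of 1 or more kinds of RNA had them well above background, and 19263 were above it in all channels. A gene was the mean of its kept probes. RefSeq's gene table named 10835 of the 16321 probes that have an accession of that source, 5201 probes matched it by symbol and 3488 by an older symbol, and others kept their name in the files. lmFit took all 4 arrays with a coefficient for each of the 2 direct comparisons, and eBayes added a prior of 4.72 to 2 residual degrees of freedom. Adjusted p-values are Benjamini-Hochberg over 21310 genes, with a threshold of 0.05. Levels are log2 after loess and Aquantile, and depend on dye between CC-CJ and the others. A bound ("at least") sets the mean of the brighter kind of RNA on the arrays of that comparison against, per dim array, the higher of the probe's own signal and the lowest signal of probes well above background. It is open to dye bias, as no dyes were swapped.

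Named were the 10 genes, in each list those past the threshold (at most 6) or else the 2 with the largest ratio, and the 5 genes with a known symbol nearest to Slc7a3. Atf5, Slc7a2 and Slc7a11 were named after their values were seen. The genes and lists were chosen with earlier results of these data known, and lists came from textbook knowledge. M correlated at 0.556 between the AA-CJ arrays, at 0.618 between the CC arrays and at -0.051 to 0.079 across them. Deviations of M on arrays with the same replicate number correlated at -0.113, while CC-CJ levels alone matched by number (SD of differences between arrays 0.132 to 0.153 within a number, 0.158 to 0.191 between numbers). As the sources used here state no shared RNA, the fit has no block, and the blocked values are given. The steps were tested on simulated data. Alternatives covered background, normalization, source of values, filter, probes, arrays, prior, replicate block and each array left out, with locfit 1.5.9.12 for the regression (2 iterations, shares 0.3 and 0.05).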

Additional observations from a re-analysis of the deposited data

How the results depend on the processing

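With 2 arrays per comparison, no dye swap and 2 residual degrees of freedom, counts of genes past the threshold moved widely, and the causes were not tested beyond what each setting changes. For Slc7a3, CC-CJ over AA-CJ was -1.84 under median centring, -0.66 with regression on intensity and location, -0.75 with the Feature Extraction log ratio and -0.66 with the authors' processed values. CC-CJ over CC was -0.80 under median centring and 0.43 with the authors' values, and CC over AA-CJ was -1.12 with the Feature Extraction log ratio. Over all alternatives, 41 values of Slc7a3 and 344 of the other genes moved by less than the spread between arrays, and 7 and 40 moved by more. The 41 and 344 include settings that leave a ratio unchanged by construction, such as prior, block and arrays of another comparison, so they do not measure stability. Only Slc7a5 among the genes followed passed against AA-CJ with the replicate block, none passed with the Feature Extraction log ratio, and all 9 did under median centring. These calls are descriptions, as the genes were chosen on these ratios.

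Over all genes, 658 passed for CC-CJ over AA-CJ, of which 62.5% were higher in CC-CJ. The count was 292 with an offset of 10 (80.5% higher), 13194 under median centring (5.3%), 1037 with the regression, 73 with the Feature Extraction log ratio (89%) and 1102 with its own arrays alone (53.7%). For CC-CJ over CC, 499 passed, and 14300, 268 and 287 did under median centring, with the Feature Extraction log ratio and with probes above background in all channels. For CC over AA-CJ, 564 passed, and 247 and 348 did under the last 2 of these. Without each array in turn the counts were 105 to 1102 for CC-CJ over AA-CJ (lowest without the first AA-CJ array), 203 to 669 for CC-CJ over CC (lowest without the second CC array) and 347 to 631 for CC over AA-CJ.

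With a replicate block, 163 genes passed for CC-CJ over AA-CJ (80.4% higher), 306 for CC-CJ over CC and 289 for CC over AA-CJ, and 1 of the ATF4 targets (Gdf15, adjusted p = 0.0464 in limma) for CC-CJ over AA-CJ, where Aldh1l2 had 0.0589. The block changed no other count of a list. With the replicate numbers crossed, chosen after seeing the data, 1502, 853 and 850 genes passed, and 1 other carrier, 3 ATF4 targets and 2 ER genes against AA-CJ, 1 ATF4 target, 1 synthetase and 1 ER gene against CC, and 1 ATF4 target for CC over AA-CJ.

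For the lists, median centring called 11 and 8 other carriers, 20 and 20 ATF4 targets, 16 and 17 synthetases and 18 and 18 ER genes for CC-CJ over AA-CJ and over CC, nearly all lower in CC-CJ, and 2 ATF4 targets for CC over AA-CJ. Of the carriers, 1 passed against AA-CJ with the authors' values and 1 with a trended prior. Of the ATF4 targets, where 2 passed against AA-CJ, 4 did with the regression, 4 with the authors' values, 1 with the Feature Extraction log ratio, 1 with probes above background in all channels, and 0 to 3 without each array. For CC-CJ over CC, 1 passed with the Feature Extraction log ratio, 1 with its own arrays alone and 0 to 1 without each array. For CC over AA-CJ, 1 passed with an offset of 10, 1 with the authors' values, 1 with a trended prior and 0 to 1 without each array. Of the synthetases, 1 passed for CC over AA-CJ by the brightest probe, and 0 to 1 for CC-CJ over AA-CJ without each array. Of the ER genes, 2 passed for CC-CJ over AA-CJ with its own arrays alone, 0 to 2 without each array, and 0 to 2 for CC-CJ over CC without each array.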

Other observations

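The kinases that phosphorylate eIF2, the subunit itself and its phosphatase partners, all 7 genes of the list measured, did not pass in limma in any comparison, with 3, 0 and 2 at an unadjusted p under 0.05 for CC-CJ over AA-CJ, CC-CJ over CC and CC over AA-CJ, beside 22.6%, 16.9% and 17.8% of all genes. Against AA-CJ the largest log2 ratios were those of Eif2ak2, the kinase that senses double-stranded RNA, at 0.43 (limma adjusted p = 0.0887), and Eif2ak1, the heme-regulated kinase, at -0.31 (adjusted p = 0.0921). For CC over AA-CJ they were 0.36 (limma adjusted p = 0.306) and -0.31 (adjusted p = 0.238). For CC-CJ over CC, Eif2ak2 at 0.07 (limma adjusted p = 0.791) and Eif2ak4 at -0.06 (adjusted p = 0.753) were the largest. The medians of the list were 0.01, -0.04 and 0.07.

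Of the genes that use or make arginine and lysine, the amino acids that Slc7a3 carries, 9 of 11 were measured and none passed in limma in any comparison, with 1, 2 and 1 at an unadjusted p under 0.05, beside the same shares of all genes. Against AA-CJ the largest log2 ratios were those of Odc1, which makes the polyamine putrescine, at -0.36 (limma adjusted p = 0.0717), with M below 0 on all 4 arrays, and Arg1, an arginase, at -0.21 (adjusted p = 0.266). Against CC they were Gatm, which starts creatine synthesis from arginine, at -0.43 (limma adjusted p = 0.124) and Ass1, which serves arginine synthesis, at 0.30 (adjusted p = 0.132). For CC over AA-CJ they were Ass1 at -0.30 (limma adjusted p = 0.246) and Gatm at 0.29 (adjusted p = 0.386). Ass1 thus had the same signs as Slc7a3 in the last 2 comparisons without passing.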
